A study of Mus musculus with 79 samples.

Results

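The genes described are the aminoacyl-tRNA synthetases, the enzymes that load each amino acid onto its tRNA, in the RNA of mice that had breathed low oxygen. They were taken by symbol: 1 capital letter followed by "ars" or "ars2", plus Eprs, Farsa and Farsb, in any of the 5 deposited count tables. This gave 35 of 15198 symbols, 19 of them without a 2, whose enzymes work in the cytosol, and 16 ending in 2, whose enzymes work in mitochondria. C57BL/6 mice aged 3 months breathed 6% oxygen or 21% oxygen (air) for 4 h. Wild-type mice kept on light-dark cycles (LD, 12 h each) were exposed during the dark phase, at zeitgeber time ZT16-20, or the light phase, ZT4-8, and gave liver, lung and kidney. Mice labelled Per1,2 double knock-out (KO), which lack both clock genes, and wild-type (WT) mice spent 2 days without light (DD), were exposed at the circadian times CT16-20 or CT4-8, and gave liver. The 79 libraries form 20 groups, each from 4 separate mice, except KO livers at CT16-20 in 6% oxygen with 3.

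Cytosolic synthetases supply the charged tRNAs for translation of nuclear mRNAs, and 8 of them (Eprs, Iars, Lars, Mars, Qars, Rars, Kars and Dars) sit together in a multi-synthetase complex held by the scaffold proteins Aimp1, Aimp2 and Eef1e1. Mitochondrial synthetases are encoded in the nucleus, imported, and serve the few proteins translated inside mitochondria. Gars and Kars each encode forms for both compartments and are counted here by symbol as cytosolic. When amino acids run short or the endoplasmic reticulum is stressed, the transcription factor ATF4 is known to raise many cytosolic synthetase genes together with amino acid transporters and biosynthetic enzymes.

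Libraries held between 1.44 and 6.74 M counts in total, and a median of 4882 counts per library fell in synthetases. The labelled tissues carried their own markers: 5 hepatocyte genes summed to 88100 to 141000 CPM (counts scaled to the library total) in LD liver, 5 lung epithelial genes to 65000 to 96700 CPM in lung and 5 kidney tubule genes to 14200 to 16500 CPM in kidney. Per1 had 14.1 to 35.2 CPM in KO livers and 16.6 to 86.8 CPM in WT livers in darkness, and Per2 had 4.45 to 32.2 CPM in KO livers and 2.82 to 28.1 CPM in WT livers. Counts per gene can come from outside a deleted part, so these values do not check the genotype labels. Library A of WT livers at CT4-8 in air stood apart, with a median correlation of 0.943 to the rest of its group, the lowest of all 79. Air libraries B and C of lung at ZT4-8 and D at ZT16-20 had the highest sums of muscle markers (4 of 5 listed), 1820, 2170 and 2110 CPM. All bulk values share a limit: fewer cells of a type and less RNA per cell cannot be told apart.

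Of the members, 31 were counted well enough to be tested in all 5 tables, 19 of 19 cytosolic and 12 of 16 mitochondrial. Pars2 was tested in the LD tables, Mars2 in kidney, and Ears2 and Nars2 in no single table. The low-count filter needs a minimum count of 10 in enough libraries. A change was called at an adjusted p under 0.05 (edgeR quasi-likelihood test, Benjamini-Hochberg over all genes of the table), and a log2 fold change is given ± its standard error (SE).

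Most calls were higher at 6% oxygen among cytosolic members, while mitochondrial members had few calls. Over the 10 comparisons of 6% with 21% oxygen, cytosolic members had 22 calls higher at 6% oxygen and 1 lower, and 140 of 190 values (73.7%) were positive. Mitochondrial members had 1 call higher and 5 lower, and 60 of 128 values (46.9%) were positive. Each comparison called 4.51% to 22.6% of all genes tested, 2.39% to 11.2% higher and 2.11% to 11.4% lower, and 47.9% to 50.9% of all genes were positive. Of the 19 cytosolic members, 11 were called higher at least once (Aars, Cars, Eprs, Farsa, Gars, Hars, Lars, Nars, Rars, Tars and Vars), Wars was called lower once, and 7 had no call (Dars, Farsb, Iars, Kars, Mars, Qars and Yars). The share called higher at least once was 57.9% for these 19, against 28.5% of the 7617 genes tested in all 5 tables, and 5.26% against 28.1% were called lower at least once. Of the 12 mitochondrial members tested in all 5 tables, 1 (8.33%) was called higher at least once, against 28.5% of all genes. At least once lower were 3 (25%), near the 28.1% of all genes. Eprs, Hars and Lars were positive in 10 of 10 comparisons and Hars2 was negative in 10 of 10. The values of 1 comparison are not independent, and the design gives 3 tissues per mouse. Under DESeq2 and under RLE scaling the positive counts were 140 of 190 and 61 of 128. Calls also depend on how well a gene is counted. In WT livers the highest mean count was 111.1 among mitochondrial members (Fars2) and 556.4 among cytosolic ones (Tars). The shares called were not matched for counts. Whether the compartments differ from each other was not tested.

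**Figure D1:**
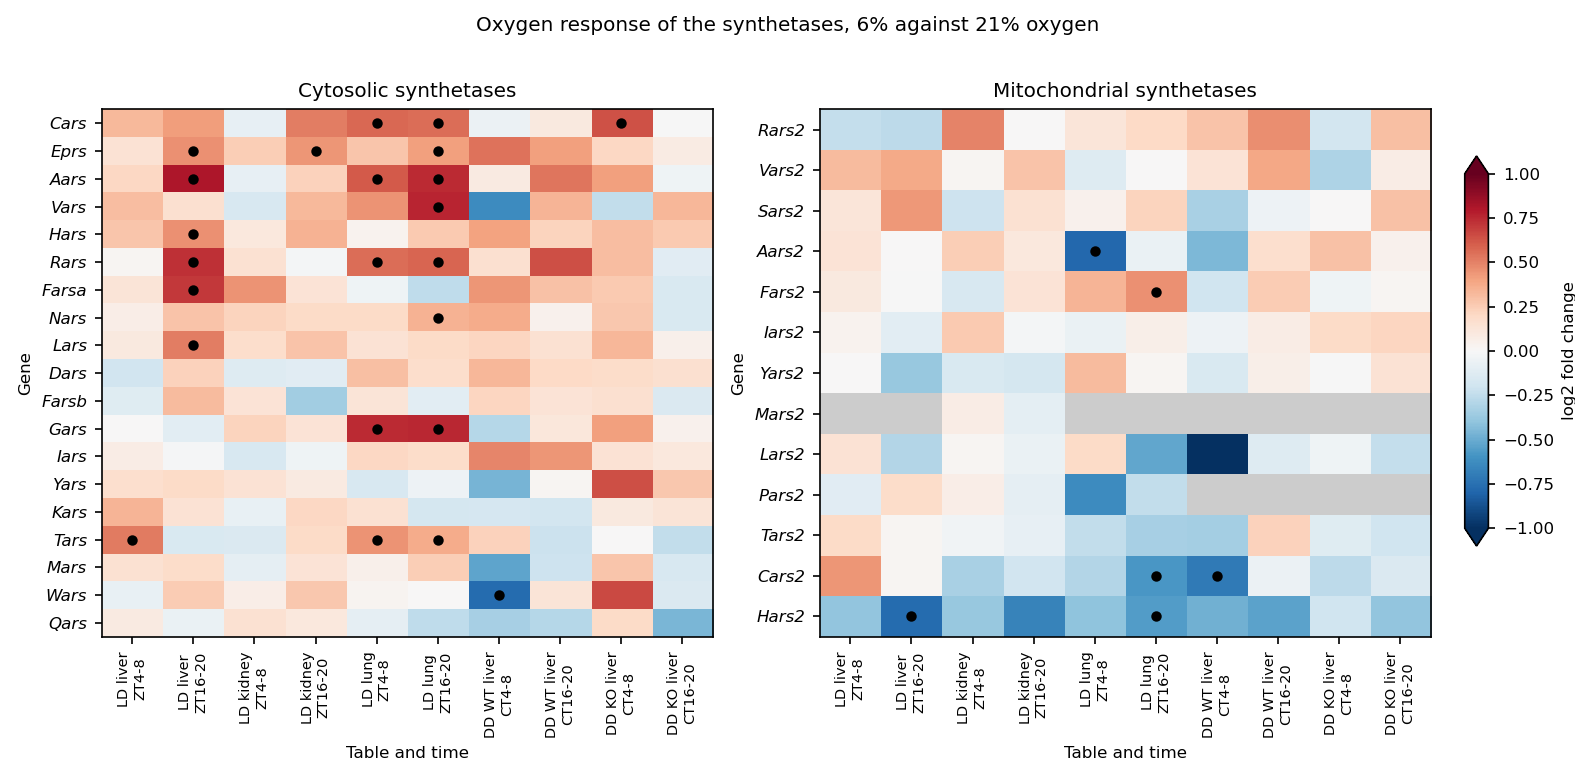
Log2 fold change at 6% against 21% oxygen (colour, capped at ±1) for the tested synthetases reported by name (rows, by falling median) in each table and time (columns). Black dots mark calls at an adjusted p under 0.05, and grey cells were not tested. Most dots stand on red cells among cytosolic members, with 22 calls higher, and Hars2 is blue in 10 of 10 columns.

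By compartment, the cytosolic median lay above that of all genes tested in each comparison. The 3 highest values were 0.27 in KO livers at CT4-8, against 0.007 for all genes, 0.25 in LD liver at ZT16-20, against -0.003, and 0.25 in lung at ZT16-20, against -0.013. It was lowest in KO livers at CT16-20, at -0.003 against -0.009. The mitochondrial median ran from -0.26 in WT livers at CT4-8 to 0.12 in LD liver at ZT4-8. The air group of that WT comparison includes library A, which stood apart, and its part in this median was not tested. The mitochondrial median in LD liver at ZT16-20, -0.006, turned to 0.001 under DESeq2 and 0.003 under RLE scaling; no other median changed sign.

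**Figure D2:**
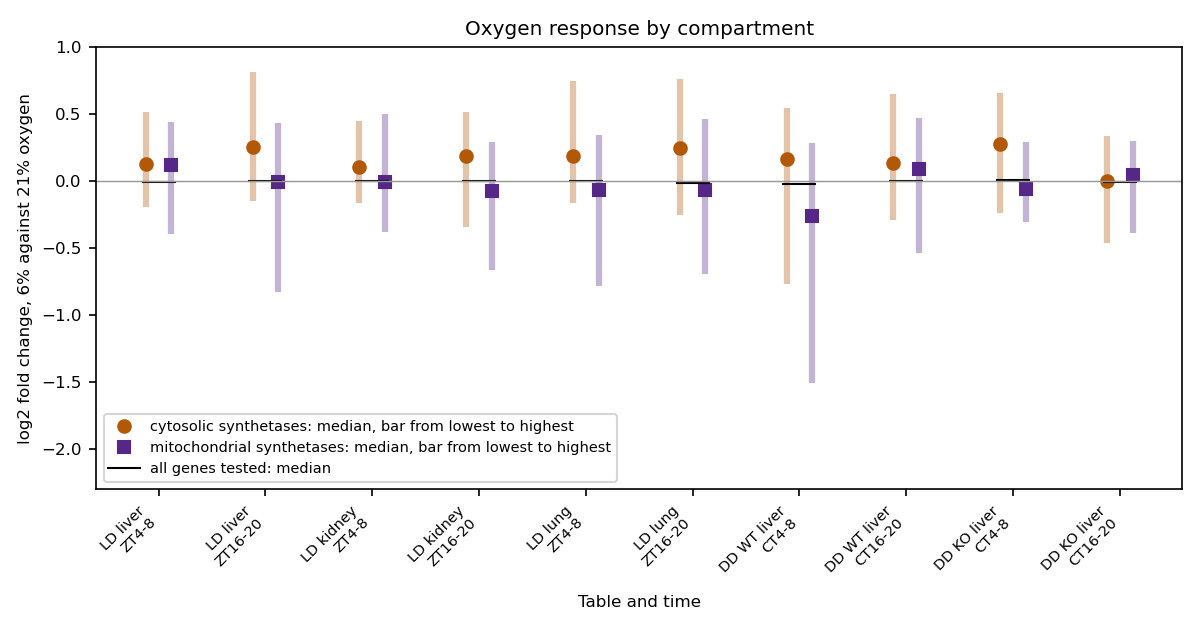
Median log2 fold change at 6% against 21% oxygen for cytosolic (orange circles) and mitochondrial (purple squares) synthetases in each table and time, with bars from the lowest to the highest member and black ticks for the median of all genes tested. The orange medians run from -0.003 to 0.27, and the black ticks stay near 0.

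Lung had the most synthetase calls. At ZT16-20, 8 of 19 cytosolic members and Fars2 rose and Cars2 and Hars2 fell at 6% oxygen, 11 of 32 tested, against 21.1% of all genes called, 10.2% higher and 10.9% lower. At ZT4-8, Gars, Tars, Rars, Cars and Aars rose and Aars2 fell, 6 of 32, against 22.6% of all genes, 11.2% higher and 11.4% lower. With all libraries, the shares of members called are thus above the background at ZT16-20 and below it at ZT4-8. Without the 3 air libraries with the most muscle RNA, 6 members and 2392 genes were called at ZT16-20. At ZT4-8 these were 7 and 1872, so the contrast between the times was not kept. All 13 cytosolic calls in lung were higher at 6% oxygen.

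Gars, the glycine enzyme, had the smallest adjusted p in lung. At ZT16-20 it had 165, 177, 154 and 127 CPM in 6% lungs, against 79.1, 76.8, 90 and 122 CPM in air lungs. At ZT4-8 it had 200, 150, 170 and 179 CPM in 6% lungs, against 90.1, 104, 120 and 102 CPM in air lungs. Every 6% library stood above every air library at both times. The log2 fold changes were 0.75 ± 0.14 (adjusted p = 0.000389, edgeR) at ZT16-20 and 0.75 ± 0.14 (adjusted p = 0.000348) at ZT4-8, and all alternatives kept both calls.

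Aars, the alanine enzyme, had 67.6, 108, 91 and 76.8 CPM in 6% lungs at ZT16-20, against 70.5, 45.5, 49.5 and 38.2 CPM in air lungs. At ZT4-8 it had 113, 77, 102 and 102 CPM in 6% lungs, against 84.8, 62.5, 65.6 and 44.9 CPM in air lungs. The groups overlapped by 1 air library, A, at each time. The log2 fold changes were 0.74 ± 0.20 (adjusted p = 0.0114, edgeR) and 0.61 ± 0.20 (adjusted p = 0.0291). Aars shares 1326 of its 9282 annotated exonic bases with Exosc6 on the same strand. Reads from those bases could belong to either gene, in every tissue described.

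Rars, the arginine enzyme of the complex, had 36.4, 47, 40.9 and 49.9 CPM in 6% lungs at ZT16-20, against 30.5, 31.9, 35.8 and 18.5 CPM in air lungs. At ZT4-8 it had 46.1, 45.7, 47.6 and 56.7 CPM in 6% lungs, against 33.9, 37.5, 29 and 33.2 CPM in air lungs. Groups did not overlap at either time, with log2 fold changes of 0.58 ± 0.17 (adjusted p = 0.0134, edgeR) and 0.56 ± 0.16 (adjusted p = 0.0132). Tars, the threonine enzyme, had 146, 122, 126 and 124 CPM in 6% lungs at ZT4-8, against 97, 90.4, 115 and 76.8 CPM in air lungs. Its log2 fold change there was 0.45 ± 0.12 (adjusted p = 0.0101), and at ZT16-20, where 1 air library overlapped, 0.37 ± 0.13 (adjusted p = 0.0366).

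Cars, the cysteine enzyme, had 71.4, 45.9, 48.4 and 50.8 CPM in 6% lungs at ZT4-8, against 30.6, 38.7, 43.6 and 32.1 CPM in air lungs. The change was 0.57 ± 0.18 on the log2 scale (adjusted p = 0.0225, edgeR), and 0.56 ± 0.18 (adjusted p = 0.0317) at ZT16-20. Vars, the valine enzyme, had 26.7, 38.4, 29.6 and 31.5 CPM in 6% lungs at ZT16-20, against 24.4, 20.1, 20 and 10 CPM in air lungs. The groups were apart, with a log2 fold change of 0.76 ± 0.21 (adjusted p = 0.0106). Eprs, which charges both glutamate and proline tRNAs, had 92.8, 93, 82.5 and 97.6 CPM in 6% lungs at ZT16-20, against 75, 77.4, 66.6 and 57 CPM in air lungs. Eprs had a log2 fold change of 0.41 ± 0.12 (adjusted p = 0.0172), and that of Nars, the asparagine enzyme, was 0.35 ± 0.11 (adjusted p = 0.0212).

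In lung the sum of 5 endothelial genes moved with oxygen, 2440 to 3300 CPM in 6% libraries against 1890 to 2240 CPM in air libraries at ZT16-20, and 3750 to 4190 against 2200 to 2560 CPM at ZT4-8. The sum of 5 neutrophil genes was 233 to 421 CPM in 6% libraries and 57.4 to 130 CPM in air libraries at ZT16-20, and 335 to 636 and 319 to 521 CPM at ZT4-8. Their part in the lung results was not tested. Without the 3 air libraries with the most muscle RNA, the number of synthetases called at ZT16-20 was 6 and at ZT4-8 was 7. The calls of Aars at both times (adjusted p = 0.0664 and 0.126, edgeR), and of Eprs (0.0562), Fars2 (0.0541), Tars (0.0589) and Hars2 (0.093) at ZT16-20, then ended. Leaving out single libraries at ZT4-8 ended the calls of Aars (air B, C or D; 6% A, C or D; adjusted p up to 0.0828), Cars (air A or D; 6% A; up to 0.102) and Rars (6% D; 0.0592). At ZT16-20 it ended those of Tars (air A, C or D; 6% A, B or C; up to 0.0837), Fars2 (air A, B or D; 6% B or C; up to 0.088), Hars2 (air A, B or D; 6% A, B or D; up to 0.129), Cars (air B or C; 6% B; up to 0.141) and Nars (air C; 6% C; up to 0.0847).

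Gars lies at chr6:55038007-55079500 on the plus strand, Aars at chr8:111033144-111057664 on the plus strand and Tars at chr15:11382301-11399665 on the minus strand (mm10, GENCODE vM21). Stretches of promoter are shown for Gars, Aars and Tars, members called in lung at both times whose window holds a match before the start to the letters TGATGNAA. This is one form of the element that ATF4 is known to bind with C/EBP proteins. Each is the 150 bases before the RefSeq gene start on GRCm38.p6, written 5′ to 3′ on the gene's strand, with the match in capitals (here read on the opposite strand).
Gars, chr6:55037851-55038000, plus strand: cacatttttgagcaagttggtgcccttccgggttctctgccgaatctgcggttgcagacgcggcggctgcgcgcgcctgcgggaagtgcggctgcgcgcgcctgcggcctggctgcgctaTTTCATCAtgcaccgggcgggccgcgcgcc
Aars, chr8:111033692-111033841, plus strand: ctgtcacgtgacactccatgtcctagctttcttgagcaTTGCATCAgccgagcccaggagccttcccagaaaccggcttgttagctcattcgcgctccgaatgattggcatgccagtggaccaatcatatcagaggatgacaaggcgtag
Tars, chr15:11399659-11399808, minus strand: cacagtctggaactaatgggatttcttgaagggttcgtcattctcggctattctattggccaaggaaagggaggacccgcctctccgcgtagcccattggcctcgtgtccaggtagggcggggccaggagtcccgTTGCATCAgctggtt
The match lies at -30 to -23 in Gars, -112 to -105 in Aars and -15 to -8 in Tars, where -1 is the last base before the RefSeq start. GENCODE starts differ from these. The whole Aars stretch lies inside the GENCODE span given above, as do the last bases of the Tars stretch. Aars has another at 10 to 17, Iars has one at 8 to 15 and Yars one at 4 to 11. In windows from 250 bases before to 50 after the start, read on both strands, 5 of the 11 cytosolic members with a RefSeq promoter and 0 of the 13 mitochondrial ones held a match, against 1219 of 27025 genes (4.51%). The cytosolic members left out of these 11 are Cars, Hars, Lars, Mars, Nars, Rars, Vars and Wars. Iars and Yars had no oxygen call. A match is a description of these letters and shows no binding.

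**Figure D3:**
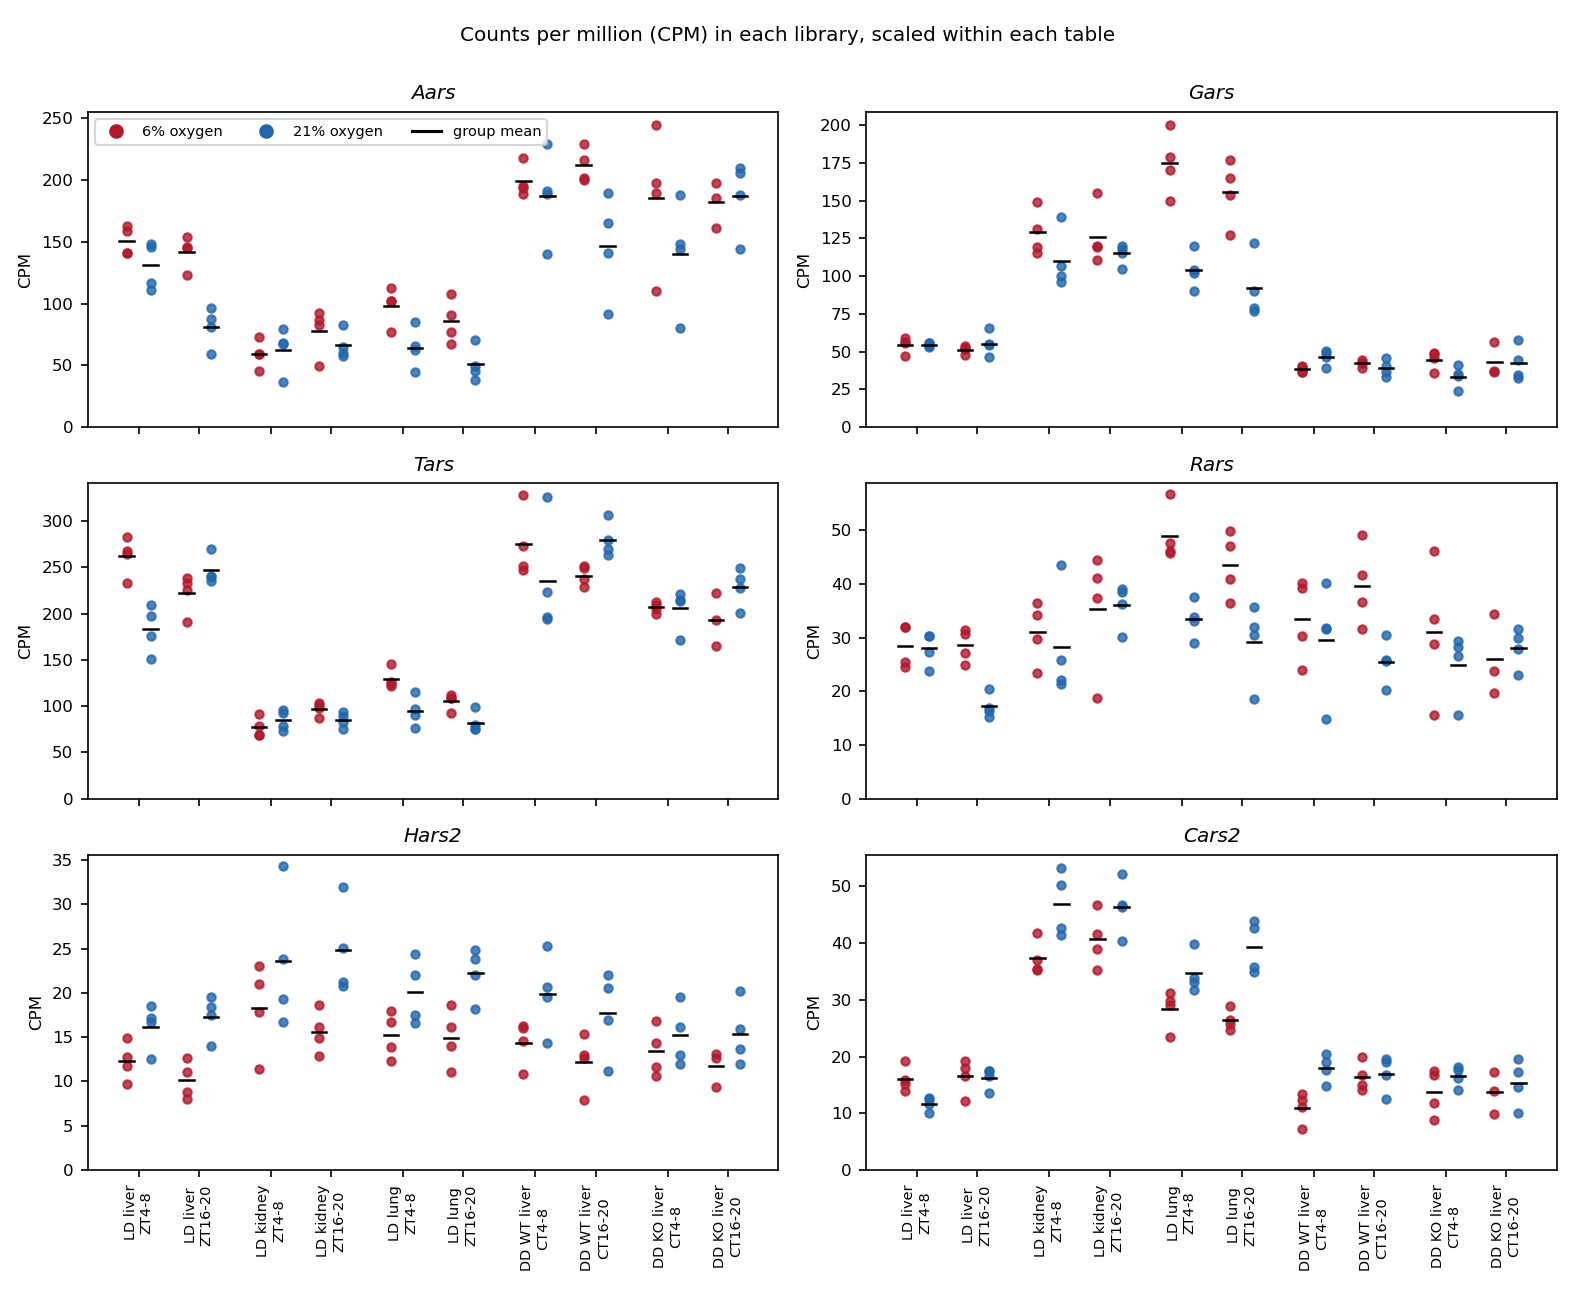
Levels of Aars, Gars, Tars, Rars, Hars2 and Cars2; each point is 1 library, with 6% oxygen (red) left of 21% oxygen (blue) at each table and time, and the line is the group mean; the vertical axis is CPM, scaled within each table. Gars separates both oxygen levels in lung, and the Hars2 mean is lower at 6% oxygen in each of the 10 pairs.

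In LD liver most synthetase calls came at ZT16-20. At ZT16-20, Aars, Rars, Farsa, Eprs, Lars and Hars rose and Hars2 fell at 6% oxygen, 7 of 32 members, against 20.3% of all genes called, 9.98% higher and 10.3% lower. At ZT4-8, Tars rose, 1 of 32, against 9.64% of all genes. The share of members called was therefore near the background or below it, and 6 of 6 cytosolic calls at ZT16-20 were higher.

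Aars had 146, 123, 145 and 154 CPM in 6% livers at ZT16-20, against 87.5, 81.2, 59.3 and 96.3 CPM in air livers, with no overlap. Aars thus had a log2 fold change of 0.81 ± 0.14 (adjusted p = 0.000338, edgeR). Rars had 30.7, 27.1, 25 and 31.5 CPM in 6% livers, against 16.9, 20.4, 15.3 and 16.3 CPM in air livers, and rose by 0.73 ± 0.15 on the log2 scale (adjusted p = 0.00136). Both calls held under all alternatives.

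Farsa, the catalytic subunit of the phenylalanine enzyme, had 24.3, 23.4, 20.9 and 28.3 CPM in 6% livers at ZT16-20, against 14.9, 12.8, 16.3 and 15.1 CPM in air livers. The log2 fold change of Farsa was 0.70 ± 0.19 (adjusted p = 0.0106, edgeR), while that of its partner subunit Farsb was 0.32 and did not pass. Lars, the leucine enzyme, had 29.7, 23.6, 23.2 and 31 CPM in 6% livers, against 17.5, 17.2, 20.7 and 19.7 CPM in air livers. The groups did not overlap, with a log2 fold change of 0.51 ± 0.17 (adjusted p = 0.0328). Eprs had 106, 78.9, 93.2 and 117 CPM in 6% livers, against 60, 64.7, 70.3 and 92.1 CPM in air livers. It overlapped by air library D, with a log2 fold change of 0.46 ± 0.14 (adjusted p = 0.0258), and that of Hars was 0.45 ± 0.15 (adjusted p = 0.0409). Leaving out single libraries ended the calls of Eprs (air A or B; 6% A or D; adjusted p up to 0.0894), Lars (air A, B or D; 6% A or D; up to 0.0934) and Hars (air A, B or D; 6% B or D; up to 0.146).

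The Tars response differed between the times. At ZT16-20 it had 225, 239, 233 and 191 CPM in 6% livers, against 235, 240, 241 and 270 CPM in air livers, and its log2 fold change of -0.15 was not called. At ZT4-8 it had 233, 268, 264 and 283 CPM in 6% livers, against 197, 151, 209 and 176 CPM in air livers, a log2 fold change of 0.52 ± 0.12 (adjusted p = 0.00631, edgeR). The response at ZT16-20 minus that at ZT4-8 was -0.67 ± 0.17 (adjusted p = 0.0375), the single call of 32 members, against 2.06% of all genes. It ended without any of 11 of the 16 libraries, all but air C and 6% A at ZT4-8 and air C, 6% B and 6% C at ZT16-20 (adjusted p up to 0.0922), and without the low-count filter.

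The air livers themselves differed between times, and these groups are also the air side of the oxygen responses above. At ZT16-20 against ZT4-8 in air, Aars, Rars and Cars fell and Tars rose, 4 of 32 members, against 5.91% of all genes. Aars had 87.5, 81.2, 59.3 and 96.3 CPM at ZT16-20, against 146, 111, 117 and 148 CPM at ZT4-8, a log2 fold change of -0.69 ± 0.14 (adjusted p = 0.00472, edgeR). Rars had 16.9, 20.4, 15.3 and 16.3 CPM at ZT16-20, against 30.3, 30.4, 23.8 and 27.3 CPM at ZT4-8, with -0.70 ± 0.15 (adjusted p = 0.00613). Cars had 18.6, 18.5, 19.4 and 18 CPM at ZT16-20, against 25.5, 25.7, 30.4 and 37.2 CPM at ZT4-8, with -0.67 ± 0.18 (adjusted p = 0.0273). All 3 were lower at ZT16-20 in every library. Tars had a log2 fold change of 0.43 ± 0.12 (adjusted p = 0.0352), a call that ended without any of 7 of the 8 libraries, all but air C at ZT4-8 (adjusted p up to 0.118). The Cars call ended without air C or D at ZT4-8 or air A, B or D at ZT16-20 (adjusted p up to 0.115).

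Of the kidney synthetases, Eprs alone passed the test, at 1 time. At ZT16-20, Eprs rose, 1 of 33 members, against 6.9% of all genes. It had 74.3, 98.1, 79.8 and 84.9 CPM in 6% kidneys, against 61.2, 56.5, 65.9 and 64.3 CPM in air kidneys, with no overlap and a log2 fold change of 0.44 ± 0.13 (adjusted p = 0.0406, edgeR). The call ended without any of 7 of the 8 libraries, all but 6% A (adjusted p up to 0.148). At ZT4-8, 0 of 33 were called by edgeR, 2 had an unadjusted p under 0.05 and DESeq2 called 0, against 5.28% of all genes. That background of 574 genes was 342 without air library B and 1017 without air library C. In kidney at the same times 15 and 11 of 19 cytosolic members had positive log2 fold changes, with medians of 0.19 and 0.11.

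The difference of the oxygen response between times gave 0 synthetase calls outside LD liver. In kidney, lung, WT and KO livers, edgeR and DESeq2 each called 0, against 0.368%, 0.255%, 1.62% and 0.0117% of all genes, and 1, 2, 5 and 3 members had an unadjusted p under 0.05. Between times in air, kidney, lung and KO livers also had 0 calls by both tools, against 1.09%, 0.979% and 0.0235% of all genes, with 1, 0 and 3 members at an unadjusted p under 0.05. In WT livers in air Vars had 13.1, 13.8, 14.1 and 16.3 CPM at CT16-20, against 42.3, 19.5, 28 and 19.7 CPM at CT4-8. Vars had a log2 fold change of -0.90 ± 0.22 (adjusted p = 0.0226, edgeR), the call of 1 of 31 members, against 3.66% of all genes. The highest value is library A at CT4-8, and without that library the log2 fold change was -0.62 (adjusted p = 0.0685). The call also ended without air C at CT4-8 or air A, B or C at CT16-20 (adjusted p up to 0.0738).

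In WT livers in darkness the CT4-8 calls were lower at 6% oxygen, while the median log2 fold change of the cytosolic members was 0.16. Wars, the tryptophan enzyme, had 15.8, 18.6, 16 and 18.9 CPM in 6% livers, against 44, 27.7, 25.7 and 22.7 CPM in air livers. Its log2 fold change was -0.77 ± 0.21 (adjusted p = 0.0216, edgeR), and without air library A, the highest, -0.53 (adjusted p = 0.0674). Cars2, the mitochondrial cysteine enzyme, had 13.4, 11.1, 7.23 and 12.3 CPM in 6% livers, against 19, 20.4, 14.9 and 17.7 CPM in air livers. The Cars2 log2 fold change was -0.71 ± 0.22 (adjusted p = 0.0401), and without air library A -0.67 (adjusted p = 0.0577). These were 2 of 31 members, against 11.8% of all genes. The sum of the neutrophil markers, 3 of 5 of them listed, was 3.26 to 12.1 CPM in 6% livers and 0.578 to 4.4 CPM in air livers, and its part in these values was not tested. Single other libraries ended the calls of Wars (6% A or C; adjusted p up to 0.0701) and Cars2 (air B or D; 6% B, C or D; up to 0.155). At CT16-20, 0 of 31 were called by edgeR or DESeq2, with 5 at an unadjusted p under 0.05, against 9.83% of all genes, and 15 of 19 cytosolic values were positive.

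In KO livers at CT4-8, Cars rose, 1 of 31, against 5.59% of all genes. It had 49.7, 34.1, 40.2 and 58.1 CPM in 6% livers, against 28.8, 22.3, 36.8 and 28.5 CPM in air livers, overlapping by air library C, with a log2 fold change of 0.64 ± 0.18 (adjusted p = 0.0435, edgeR). The call ended without air A, B or D or 6% A, C or D (adjusted p up to 0.146). The sum of the 5 neutrophil markers was 15 to 72.8 CPM in these 6% livers and 4.4 to 12.6 CPM in the air livers, and its part in the Cars value, and in the KO minus WT response of Wars given next, was not tested. At this time 18 of 19 cytosolic values were positive. At CT16-20, 9 of 19 were positive, 0 of 31 were called by edgeR or DESeq2 and 1 had an unadjusted p under 0.05, against 4.51% of all genes.

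Between KO and WT livers, which are also separate tables, the oxygen response of Wars at CT4-8 differed. On a joint scale Wars had 42.3, 23.4, 20.9 and 34.9 CPM in KO livers at 6% oxygen and 23.5, 13.6, 21 and 18.4 CPM in KO livers in air. It had 15.9, 18.6, 16 and 18.6 CPM in WT livers at 6% oxygen and 43.6, 27.2, 25.8 and 22.4 CPM in WT livers in air. The KO response minus the WT response was 1.42 ± 0.32 on the log2 scale (adjusted p = 0.0125, edgeR), the single call of 31, against 2.42% of all genes. It held under all alternatives, at 1.19 (adjusted p = 0.0313) without WT air library A. At CT16-20 the difference of responses gave 0 calls by edgeR or DESeq2 and 0 at an unadjusted p under 0.05, against 0.0444% of all genes.

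Genotype and table coincide, so a difference between tables and a difference between genotypes cannot be told apart, in air or in the oxygen responses above. In air at CT4-8, Lars2 and Mars were lower in KO livers, 2 of 31, against 4.51% of all genes. Lars2, the mitochondrial leucine enzyme, had 13.7, 8.13, 11.3 and 12.7 CPM in KO livers, against 124, 21.7, 18.1 and 22.1 CPM in WT livers. Its log2 fold change of -1.96 ± 0.47 (adjusted p = 0.0143, edgeR) became -0.85 (adjusted p = 0.06) without WT library A. Mars, the methionine enzyme, had 42.1, 37.4, 50.3 and 49.5 CPM in KO livers, against 105, 62.9, 60.6 and 60.9 CPM in WT livers, with -0.68 ± 0.20 (adjusted p = 0.0467), and -0.45 (adjusted p = 0.206) without that library. The Mars call also ended without any of the 4 KO air libraries. Mars shares 68 exonic bases with Ddit3 on the opposite strand. At CT16-20, 0 members were called by edgeR or DESeq2 and 1 had an unadjusted p under 0.05, against 2% of all genes.

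**Figure D4:**
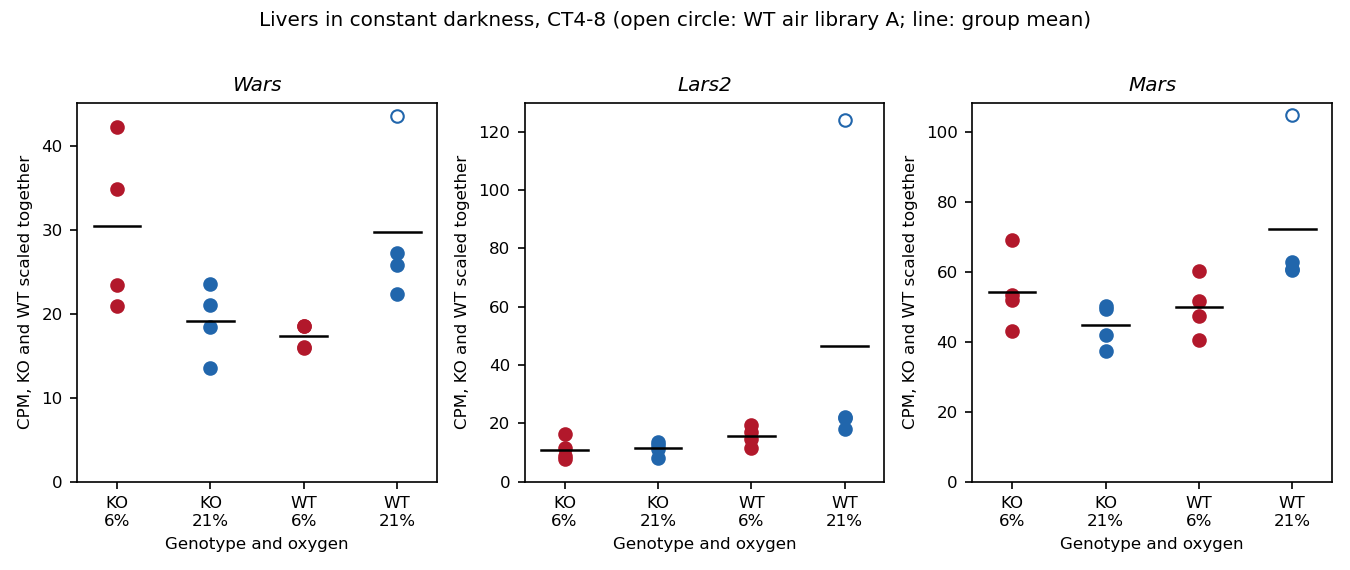
CPM of Wars, Lars2 and Mars in each library of the CT4-8 livers in darkness, KO and WT scaled together, with group means as lines. The open circle is WT air library A, at 43.6, 124 and 105 CPM, above every other library of its group.

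Among mitochondrial members, Hars2 had a negative log2 fold change in 10 of 10 oxygen comparisons, from -0.77 to -0.20. In LD liver at ZT16-20 it had 11.1, 12.7, 8.81 and 8.01 CPM in 6% livers, against 17.5, 14, 18.4 and 19.5 CPM in air livers, a log2 fold change of -0.77 ± 0.19 (adjusted p = 0.00607, edgeR), with every alternative keeping the call. In lung at ZT16-20 it had 16.1, 11.1, 18.6 and 14 CPM in 6% lungs, against 22, 24.8, 18.2 and 23.8 CPM in air lungs, and -0.56 ± 0.19 (adjusted p = 0.0379). In kidney at ZT16-20 it had 12.9, 16.1, 14.9 and 18.6 CPM in 6% kidneys, against 25.1, 20.8, 21.2 and 32 CPM in air kidneys. These did not overlap, yet the log2 fold change of -0.67 ± 0.24 was not called (adjusted p = 0.0934). Hars, the cytosolic histidine enzyme, is its neighbour on the opposite strand, and the annotations share 195 exonic bases, so reads there cannot be told apart without strand. Hars had positive values in 10 of 10 comparisons, 0.04 to 0.45.

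Cars2 had 26.4, 28.9, 25.7 and 24.7 CPM in 6% lungs at ZT16-20, against 43.9, 34.9, 35.8 and 42.6 CPM in air lungs, with no overlap. Its log2 fold change was -0.58 ± 0.14 (adjusted p = 0.00316, edgeR), and it was negative in 8 of 10 comparisons. Aars2, the mitochondrial alanine enzyme, had 12.8, 12.6, 10.3 and 11.8 CPM in 6% lungs at ZT4-8, against 18.6, 19.3, 24.8 and 18.8 CPM in air lungs, with -0.78 ± 0.17 (adjusted p = 0.00156). Cytosolic Aars rose in the same lungs. Fars2, the mitochondrial phenylalanine enzyme, was the one called higher, with 40.9, 52.7, 50.4 and 40.8 CPM in 6% lungs at ZT16-20, against 30.8, 28.9, 42.4 and 31 CPM in air lungs, and 0.46 ± 0.15 (adjusted p = 0.0285). The other 10 tested mitochondrial members had no oxygen call, among them Iars2 with values from -0.10 to 0.26.

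Levels in air differed widely between tissues, as did those of most genes, and the direction of many differences depended on the scaling. The fit used TMM factors, which centre a trimmed mean of the log ratios between libraries on 0. Liver against kidney, 18 of 34 members were then higher and 5 lower, against 65.9% of all genes called (32.6% higher, 33.3% lower). Liver against lung, 26 were higher and 1 lower, against 78.8% (38.3% higher, 40.5% lower). Lung against kidney, 2 were higher and 22 lower, against 75.5% (38.7% higher, 36.8% lower). The median log2 difference of the members was 0.30, 0.80 and -0.44, against -0.005, -0.053 and 0.041 for all genes.

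With library totals alone, a setting chosen after seeing the data, the median of all genes moved to -0.99 for liver against kidney, -1.35 for liver against lung and 0.36 for lung against kidney. The members' medians moved with it, to -0.69, -0.51 and -0.12. Liver against kidney, 4 members were then higher and 26 lower, against 10.6% and 75.9% of all genes. Liver against lung, 6 were higher and 22 lower, against 13.7% and 77% of all genes. Lung against kidney, 7 were higher and 13 lower, against 50.7% and 26.6%. Of the 74 calls between tissues under TMM, 31 kept call and direction, 10 lost the call and 33 changed sign.

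Tars and Aars were higher in liver than in the other tissues under both scalings. On the TMM scale common to the 3 tissues, Tars averaged 380 ± 71.5 CPM in liver, 65.7 ± 11 CPM in lung and 74.8 ± 7.83 CPM in kidney (SD, n = 8 each), and no liver library reached down to the other tissues. Its log2 difference was 2.53 ± 0.10 against lung (adjusted p = 1.66e-24, edgeR) and 2.32 ± 0.10 against kidney (adjusted p = 3.94e-23). Without scaling, from library totals alone, these were 1.22 ± 0.09 and 1.34 ± 0.09, both called. Aars averaged 187 ± 54.3 CPM in liver, 42.8 ± 11.8 CPM in lung and 56.8 ± 12.6 CPM in kidney. With library totals alone Aars was 0.79 ± 0.13 above lung and 0.70 ± 0.13 above kidney on the log2 scale, both called. Eprs stood 1.20 ± 0.10 above kidney in liver on the log2 scale (adjusted p = 8.87e-14), and 0.22 ± 0.10 with library totals alone (adjusted p = 0.0363).

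Wars was highest in lung under both scalings. On the TMM scale it averaged 190 ± 35.3 CPM in lung, with a range of 127 to 226 CPM, against 45.2 ± 7.74 CPM in liver and 46.1 ± 9.46 CPM in kidney. Its log2 difference was -2.06 ± 0.12 for liver against lung (adjusted p = 1.36e-18, edgeR) and 2.04 ± 0.12 for lung against kidney (adjusted p = 1.26e-18). From library totals alone they were -3.37 ± 0.12 and 2.36 ± 0.12. Wars is known as an interferon-induced gene. Liver and kidney differed by -0.02 ± 0.12, which was not called, and by -1.01 ± 0.12 with library totals alone, which was.

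Of the 15 mitochondrial members, 14 were lower in lung than in kidney under TMM, against 36.8% of all genes, and 12 were higher in liver than in lung, against 38.3%. With library totals alone, 11 were lower and 1, Vars2, was higher in lung than in kidney, while 3 were higher and 8 lower in liver than in lung. Yars2, the mitochondrial tyrosine enzyme, averaged 8.03 ± 1.71 CPM in lung on the TMM scale, against 41.9 ± 7.01 CPM in liver and 39.1 ± 1.36 CPM in kidney. Yars2 was, with library totals alone, still lowest in lung, with 1.08 ± 0.13 for liver against lung and -1.97 ± 0.13 for lung against kidney. Fars2 averaged 25.1 ± 4.23 CPM in lung on the TMM scale, against 77 ± 15.2 CPM in liver and 80.7 ± 13.6 CPM in kidney, and was likewise lowest in lung with library totals alone (0.30 ± 0.10 and -1.35 ± 0.10). Lars2 was highest in kidney under both scalings, at 40.3 ± 5.96 CPM under TMM, with 10.7 ± 2.15 CPM in lung and 18.7 ± 3.23 CPM in liver. Its liver against lung difference turned to -0.49 ± 0.13 with library totals alone. The cytosolic Lars had 32.7, 35.4 and 29.2 CPM in lung, liver and kidney under TMM, and its liver against lung difference was -1.20 ± 0.11 with library totals alone. These CPM carry TMM factors and are not per length, so they do not order genes.

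**Figure D5:**
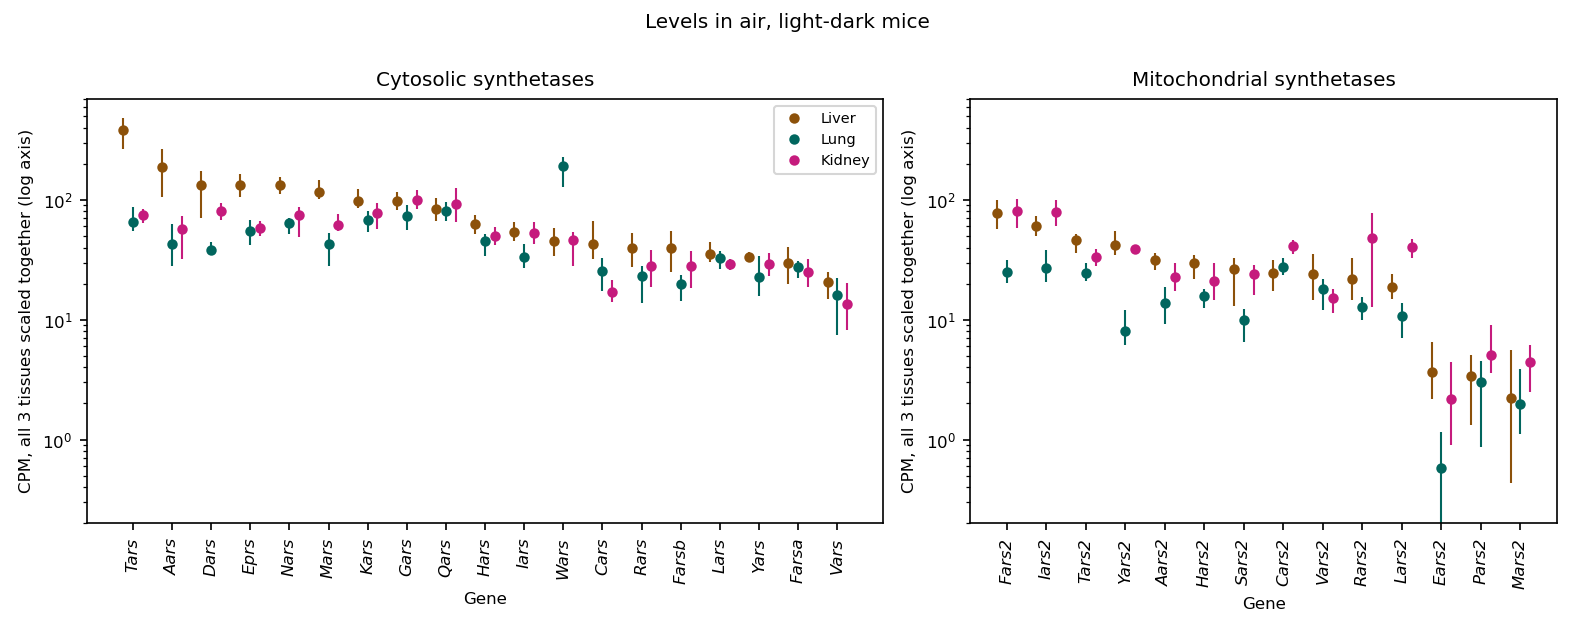
CPM of the synthetases reported by name in air libraries of LD liver, lung and kidney, all 3 tissues scaled together, on a log axis; points are means of 8 libraries and lines run from the lowest to the highest, and a library at 0 CPM of Ears2 in lung falls below the axis. Tars at 380 CPM and Aars at 187 CPM lie above the other tissues in liver, and Wars at 190 CPM in lung.

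The oxygen response itself differed between tissues for few members, averaged over both times with mouse as a block. Gars rose more in lung than in liver, with a difference of -0.84 ± 0.13 for liver minus lung (adjusted p = 1.78e-05, edgeR), and more than in kidney, with 0.61 ± 0.13 for lung minus kidney (adjusted p = 0.00196). Its log2 fold changes were -0.11 and 0.00 in liver at ZT16-20 and ZT4-8, beside 0.75 at both in lung and 0.14 and 0.22 in kidney. Liver minus lung, Cars2 (0.63 ± 0.15, adjusted p = 0.00353) and Farsa (0.53 ± 0.17, adjusted p = 0.0242) were also called, 3 of 34, against 15.2% of all genes. Lung minus kidney, Aars (0.64 ± 0.20, adjusted p = 0.0336), Fars2, Tars and Rars were called higher and Aars2 lower (-0.56 ± 0.17, adjusted p = 0.0306), 6 of 34 with Gars, against 8.05% of all genes. Liver minus kidney, Cars2 was called (0.49 ± 0.15, adjusted p = 0.0425), 1 of 34, against 6.43% of all genes.

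Leaving out each of the 16 mice in turn kept the Gars calls and that of Cars2 for liver minus lung. It ended those of Cars2 for liver minus kidney (12 of 16 mice, adjusted p up to 0.115), Farsa (2 of 16, up to 0.0674), and, for lung minus kidney, Aars2 (6 of 16, up to 0.0879), Aars (9, up to 0.0917), Fars2 (7, up to 0.0786), Tars (10, up to 0.105) and Rars (10, up to 0.138). Without the mice of the 3 lung air libraries with most muscle RNA, 3, 3 and 0 members were called for liver minus lung, lung minus kidney and liver minus kidney, among them Gars at -1.01 (adjusted p = 5.51e-06) and 0.69 (adjusted p = 0.00185). With library totals alone, 5, 3 and 0 members were called for the same differences. Gars (-0.74 and 0.48) and Cars2 for liver minus lung (0.73) stayed called, and the calls of Cars2 for liver minus kidney (adjusted p = 0.0553) and of Aars, Fars2, Tars and Rars for lung minus kidney (up to 0.146) ended.

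Of the ATF4 and amino acid response genes, 12 of 23 tested rose and 1 fell in lung at each time, where 10.2% (ZT16-20) and 11.2% (ZT4-8) of all genes were called higher. In LD liver 9 of 17 rose and 0 fell at ZT16-20, and 7 rose and 1 fell at ZT4-8, where 9.98% and 5.43% of all genes were called higher. Kidney had 6 and 4 rises of 20, WT livers in darkness 7 and 7 of 16, and KO livers 4 and 4 of 15, each at the later and then the earlier time, with 0 falls. The shares of all genes called higher at these times were 3.44% and 2.79% in kidney, 5.28% and 5.7% in WT livers and 2.39% and 2.83% in KO livers. The list was chosen with earlier results of these data known, so its counts are not an independent test. Atf4 itself had 815, 833, 691 and 657 CPM in 6% lungs at ZT16-20, against 236, 298, 231 and 371 CPM in air lungs, a log2 fold change of 1.40 ± 0.13 (adjusted p = 3.2e-08, edgeR). In kidney at ZT4-8, where no synthetase was called, the Atf4 value was 0.71 ± 0.14 (adjusted p = 0.00287). In KO livers at CT16-20, where 0 synthetases were called, it was 0.59 ± 0.15 (adjusted p = 0.0299). These are values of Atf4 RNA, not of ATF4 activity, and a link between Atf4 and the synthetases was not tested.

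The stress factor Atf3 rose by 4.05 ± 0.15 on the log2 scale in lung at ZT16-20 (adjusted p = 4.84e-15, edgeR). Slc7a1, a cationic amino acid transporter, had 42.7, 50.8, 51.6 and 30.4 CPM in 6% lungs at that time, against 11, 10.6, 12.9 and 14.4 CPM in air lungs, a log2 fold change of 1.83 ± 0.18 (adjusted p = 3.5e-08). Slc38a2, a neutral amino acid transporter, rose by 2.31 ± 0.15 in LD liver at ZT16-20 (adjusted p = 8.08e-10) and by 2.42 ± 0.16 in WT livers at CT4-8 (adjusted p = 4.81e-10). Each of these values exceeded the synthetase values of the same comparison.

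Of the 3 scaffold genes of the complex, 1 was called higher in LD liver at ZT16-20 and 1 lower in lung at each time, and 0 in the other oxygen comparisons. Over all genes, 9.98% were called higher in that liver comparison, and 10.9% (ZT16-20) and 11.4% (ZT4-8) lower in lung. Aimp2, a scaffold of the multi-synthetase complex, fell in lung at ZT16-20 (-0.58 ± 0.17, adjusted p = 0.0176, edgeR) and at ZT4-8 (-0.65 ± 0.17, adjusted p = 0.00572), and rose in LD liver at ZT16-20 (0.68 ± 0.17, adjusted p = 0.0084). Of the 8 enzymes of that complex, 2 rose in lung and 3 in LD liver at ZT16-20, where 10.2% and 9.98% of all genes were called higher. Of the elongation factors, 1 of 7 rose in lung and 1 of 6 in LD liver at ZT16-20, 2 of 6 fell in WT livers at CT4-8, where 6.07% of all genes were called lower, and 0 were called elsewhere. Eef1a1, the factor that takes charged tRNAs to the ribosome, rose in lung (0.54 ± 0.13, adjusted p = 0.00396) and LD liver (0.48 ± 0.16, adjusted p = 0.0422) at ZT16-20. In WT livers at CT4-8, Eef1g (-0.62 ± 0.15, adjusted p = 0.00838), the mitochondrial elongation factor Tufm (-0.72 ± 0.19, adjusted p = 0.0187) and Gatb (-0.65 ± 0.18, adjusted p = 0.0209), a subunit of the enzyme that makes glutaminyl-tRNA in mitochondria, fell. Gatb also fell in lung at ZT16-20 (-0.71 ± 0.23, adjusted p = 0.0321). These were the calls of its list, 1 of 3 tested in WT livers and 1 of 4 in lung, against 6.07% and 10.9% of all genes called lower. Of 4 relatives of the synthetases, 1, Aarsd1, was called, in LD liver at ZT16-20 (0.39 ± 0.13, adjusted p = 0.0418, edgeR). There 9.98% of all genes were called higher.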

How the data were processed

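RNA was sequenced from 79 mouse tissue samples. The authors deposited 5 tables of raw counts, with genes by symbol: LD liver, lung and kidney, DD WT liver and DD KO liver. Before pooling, cDNA was evened by qPCR for actin B, and the pool was amplified by in vitro transcription, per the labels' protocols. Tools named in the submitters' processing notes are STAR, HTSeq, cutadapt and bcl2fastq, with genome mm10; no version is named (annotation and strandedness not given in the sources used here). Reads of genes that overlap on opposite strands therefore cannot be told apart. On GENCODE vM21, Iars2 shares 2034 exonic bases with Rab3gap2 in this way. Aars shares 1326 with Exosc6 on the same strand, where strandedness would not separate the reads either. The number of per-sample columns left unused is 0.

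The test was the quasi-likelihood test of edgeR 4.0.16 under R 4.3.3 (filterByExpr with a minimum count of 10 and minimum total of 15, TMM scaling, robust fit, Benjamini-Hochberg over all genes of a fit). Each table had 1 fit over its groups, KO and WT livers a joint fit, and the LD tissues a joint fit with mouse as a block. The labels do not name the mouse, so it was inferred from time, oxygen and letter (3 tissues per mouse). Same-letter libraries of different tissues correlated weakly (median 0.0216 against -0.00542 for other letters). In all, 30 comparisons were made. CPM use TMM-scaled totals, except marker sums and Per1 and Per2, which use plain totals. P-values measure the spread between mice, except in the tissue fit, where they measure the spread that remains within an inferred mouse. Within-group pairs gave chi-square per degree of freedom of 2.31 to 31.3 over 117 pairs, more than sampling noise.

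Alternatives were RLE scaling, no filter, DESeq2 1.42.0, a replicate block (none for tissues), leaving out each library or mouse, and, chosen after seeing the data, leaving out 3 lung air libraries or their mice and, between tissues, library totals without scaling factors. The members and lists were chosen with earlier results of these data known. Values in every library are given for called members, at most 6 by smallest p per oxygen comparison and 3 per other comparison, and at most 4 genes per list and comparison are named. Hars2 in lung and kidney, Fars2 in lung and the tissue levels of Lars2 and Lars were added after their values were seen. Promoter sequences are RefSeq's on GRCm38.p6. The values of 1 member are not reported here by name; counts and medians include it.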

Additional observations from a re-analysis of the deposited data

Results flagged for a closer look

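Each of 60 pairs of a named synthetase and a group of 4 libraries was tested for an outlying library. In 4 pairs a library's gap to its nearest neighbour passed the 95% critical value of Dixon's ratio. Chance flags about 1 in 20 independent pairs, while these pairs share libraries. Library A of WT livers at CT4-8 in air had 124 CPM of Lars2, against 18.1, 21.7 and 22.1 CPM in the rest of its group, a ratio of 0.962. The same library had 105 CPM of Mars, against 60.6, 60.9 and 62.9 CPM, a ratio of 0.948. In lung at ZT4-8, 6% library A had 146 CPM of Tars, against 122, 124 and 126 CPM, a ratio of 0.833. Air library C had 24.8 CPM of Aars2, against 18.6, 18.8 and 19.3 CPM, a ratio of 0.887.

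The oxygen response of a synthetase differed between groups by edgeR's test of the difference in 12 cases. The KO response of Wars minus the WT response at CT4-8 was 1.42 on the log2 scale, and the ZT16-20 response of Tars in LD liver minus that at ZT4-8 was -0.67. Liver minus kidney, Cars2 differed by 0.49. Liver minus lung, Gars differed by -0.84, Cars2 by 0.63 and Farsa by 0.53. Lung minus kidney, Gars differed by 0.61, Aars by 0.64, Rars by 0.54, Fars2 by 0.45, Tars by 0.43 and Aars2 by -0.56.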

How the results depend on the processing

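Of 122 called pairs of a synthetase and a comparison, 85 kept the call under every alternative run other than library totals without scaling. Over these 2250 alternatives, 2046 kept direction and call, 204 lost the call and 0 changed direction. The 122 pairs include 74 tissue differences in air, so these pooled counts do not describe the oxygen calls. Many oxygen calls ended when a single library was left out, as given with each of them. RLE scaling ended 3 of 122 calls, no filter 4 of 122, DESeq2 1 of 122, the replicate block 6 of 38 and, between tissues, no block 3 of 84. Leaving out the 3 lung air libraries ended 6 of 17 calls in lung, and leaving out their mice 11 of 81. At these depths a synthetase with few counts, such as Ears2 or Nars2, was not tested within a table.

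Library totals without scaling, run for the tissues after seeing the data, kept 31 of 74 calls in air and 5 of 10 response differences, ended 10 and 5, and turned the sign of 33 and 0. The construction of this setting moves all genes together, by the medians given with the tissue levels. Liver against kidney, the log2 difference turned to -0.28 for Dars, -0.52 for Farsb, -0.66 for Hars, -0.67 for Kars, -0.71 for Lars, -0.061 for Mars, -0.15 for Nars, -0.50 for Rars, -0.39 for Vars, -0.52 for Aars2, -0.16 for Ears2, -0.49 for Hars2, -0.52 for Tars2 and -0.35 for Vars2. Liver against lung, it turned to -0.58 for Cars, -0.032 for Eprs, -0.34 for Farsb, -0.88 for Gars, -0.83 for Hars, -0.59 for Iars, -0.79 for Kars, -0.26 for Nars, -0.56 for Rars, -0.72 for Yars, -0.12 for Aars2, -0.38 for Hars2, -0.11 for Iars2, -0.49 for Lars2, -0.52 for Rars2, -0.40 for Tars2 and -0.90 for Vars2. Lung against kidney, that of Nars turned to 0.12. Synthetases called for the response differences numbered 5 for liver minus lung (3 under TMM), 3 for lung minus kidney (6) and 0 for liver minus kidney (1).

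Counts of synthetases called moved by over 1.5 times as follows, and the cause was not tested. DESeq2 gave 2 in LD liver at ZT4-8 (edgeR 1), 2 for the KO minus WT response at CT4-8 (edgeR 1) and 5 for liver minus lung (edgeR 3), where RLE scaling also gave 5. Without the filter there were 0 for the LD liver time difference of the response (1 with it), 1 for WT livers at CT4-8 and 1 for KO against WT in air at CT4-8 (2 each with it). With the replicate block there were 0 for that LD liver difference and for kidney at ZT16-20 (1 each without it), 1 for WT livers at CT4-8 and 1 for KO against WT in air at CT4-8 (2 each), and 1 for WT livers at CT16-20 (0). Same-letter libraries within a table correlated at medians of -0.064 to -0.014. The labels do not name what the letters mark within a table. Without the 3 lung air libraries lung at ZT16-20 had 6 (11 with them), and without their mice lung minus kidney had 3 (6) and liver minus kidney 0 (1).

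Leaving out 1 library gave 4 to 9 in LD liver at ZT16-20, 0 to 1 for its response difference, 2 to 4 between its times in air, 0 to 1 in kidney at ZT16-20 and between its times in air, and 7 to 10 in lung at ZT16-20. It gave 0 to 3 in WT livers at CT4-8, 0 to 1 at CT16-20, for their response difference and between their times in air, 0 to 1 in KO livers at CT4-8, 0 to 3 for KO against WT in air at CT4-8 and 1 to 2 for their response difference. Leaving out 1 mouse gave 0 to 1 for liver minus kidney, 2 to 5 for liver minus lung and 1 to 6 for lung minus kidney, with 3 or 2 for most mice that lowered it.

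Counts over all genes moved by over 1.5 times in some comparisons. DESeq2 called 299 (edgeR 195), 88 (40), 66 (31) and 24 (1) genes for the response difference between times in LD liver, kidney, lung and KO livers, 219 (119), 212 (119) and 33 (2) between times in air in kidney, lung and KO livers, and 36 (4) for KO minus WT at CT16-20. With the block there were 20 (40) for the kidney difference, 242 (384) in KO livers at CT16-20 and 7 (4) for KO minus WT at CT16-20. Without the 3 lung air libraries there were 19 (31) for the lung response difference and 29 (119) between its times in air, and without their mice 488 (857) for lung minus kidney. Leaving out 1 library moved the count of all genes in kidney to between 342 and 1017 (574) at ZT4-8, to between 23 and 155 (40) for its response difference and to between 57 and 372 (119) between its times in air. All 3 upper values are without air library C at ZT4-8. It gave a lowest count of 346 (559) between times in air in LD liver, 19 (31) for the lung response difference, 75 (119) between times in air in lung, 615 (1001) in WT livers at CT4-8, and 175 (311) between their times in air. It gave 68 to 197 (138) for the WT response difference, 287 to 556 (476) and 167 to 309 (384) in KO livers at CT4-8 and CT16-20, 1 to 13 (1) for their response difference and 0 to 1 (2) between their times in air. For KO against WT in air it gave 228 to 473 (406) at CT4-8 and 78 to 176 (180) at CT16-20, and for the KO minus WT response 119 to 339 (218) and 2 to 10 (4).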
